A study of Mus musculus with 38 samples.

Results

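The 31378 regions described here had SATB1 urea ChIP-seq peaks in both lists of 1 tissue and neither of the other, or in all 4. The tissues were mouse thymocytes and mouse skin. Peaks of 2 thymocyte lists and 2 skin lists were merged wherever they overlapped by at least 1 bp, which gave 52861 regions in all. A region was called thymocyte-only when both thymocyte lists and neither skin list had a peak in it (22542 regions), skin-only in the opposite case (1189 regions), and shared when all 4 lists had a peak (7647 regions). The other 21483 regions showed other patterns, most of them (17371) a peak in a single thymocyte list and no skin list.

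Both groups were wild-type Satb1+/+ mice, C57BL/6 in the labels and C57BL/6J in the methods for skin, and both were precipitated with the home-made SATB1 antibody 1583D from crosslinked chromatin purified through urea. The skin chromatin came from primary epidermal keratinocytes. Ages are given differently in different places: the labels put both groups at postnatal day 13, whereas the extraction protocol of the skin samples gives day 5 and the study's methods describe newborn skin. Thymocyte replicate 1 was made with 4 µl and replicate 2 with 2 µl of antibody, and skin replicates 1 and 2 were sonicated for 55 and 60 s. The study describes its replicates in general as biological, from different animals. For these pairs the labels are silent on this and give both samples of a tissue the same experiment number, so the spread between them may in part be technical. The comparison lists are 2 SATB1 lists from brain by the urea protocol, 2 SATB1 lists from thymocytes by standard ChIP-seq, 1 urea CTCF list each from thymocytes and skin, and the BUR reference map, made by binding recombinant SATB1 to purified thymocyte DNA in vitro. These groups also differ in age: the brain samples are labelled 5 and 6 weeks, and the thymocyte CTCF sample and standard replicate 1 are labelled postnatal day 13 but have 6 weeks in their titles. A peak list holds no measure of RNA or of cell markers, so the labelled cell types could not be checked. The lists hold no read counts, and the study describes the total aligned reads of its urea samples as similar between cell types.

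SATB1 is a nuclear protein that organizes chromatin and is needed for T-cell development in the thymus, and it is also present in basal epidermis. It binds base unpairing regions (BURs), AT-rich stretches that readily become single-stranded under torsional stress. BURs typically hold clustered stretches in which 1 strand lacks G or lacks C. CTCF is a zinc-finger protein of insulators and loop anchors that recognizes a GC-rich motif.

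The strongest BUR-overlapping regions show this composition to differing degrees. The sequences that follow surround the summit and are read from the plus strand (NCBIM37, the same assembly as mm9). They are shown for the 2 strongest BUR-overlapping regions of the thymocyte-only and shared classes, and the capitals mark the longest stretch without C or without G.
thymocyte-only region, chr1:88623945-88624095: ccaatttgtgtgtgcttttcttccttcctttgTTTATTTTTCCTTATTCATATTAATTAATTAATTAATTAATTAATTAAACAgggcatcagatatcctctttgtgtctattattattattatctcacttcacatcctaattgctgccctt
thymocyte-only region, chr2:110816110-110816260: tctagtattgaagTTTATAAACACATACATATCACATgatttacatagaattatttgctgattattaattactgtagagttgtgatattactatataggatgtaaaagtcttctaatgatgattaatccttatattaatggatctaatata
shared region, chr6:122647525-122647675: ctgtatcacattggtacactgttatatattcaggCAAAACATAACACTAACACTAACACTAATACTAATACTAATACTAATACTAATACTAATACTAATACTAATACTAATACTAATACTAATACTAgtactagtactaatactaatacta
shared region, chrX:22595237-22595387: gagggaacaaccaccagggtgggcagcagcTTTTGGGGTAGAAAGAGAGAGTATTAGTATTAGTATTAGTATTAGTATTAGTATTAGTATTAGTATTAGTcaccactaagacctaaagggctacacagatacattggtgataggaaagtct
The thymocyte-only sequence on chromosome 1 lies in an intron of Dis3l2, which encodes an exoribonuclease, and its stretch without G runs for 51 bases. The other thymocyte-only sequence lies 24828 bp from Ano3, and its longest such stretch runs for only 24 bases. The shared sequence on chromosome 6 lies 9518 bp from Nanog, a pluripotency gene, and its stretch without G runs for 93 bases. Both shared sequences are tandem repeats of ATTAGT. At least 3 tandem copies of this unit, read on either strand, were present within 150 bp of the summit at 24 of 7589 shared regions, 4 of 22511 thymocyte-only regions, 0 of 1063 skin-only regions and 31 of 232309 BURs. None of the 25555 windows of 300 bp spaced 100 kb apart in the genome held it.

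The skin-only class held sequences of different kinds. The next sequences are the strongest skin-only region on a BUR without a skin CTCF peak, and the strongest on a skin CTCF peak without a BUR, with capitals as above.
skin-only region, chr8:19882312-19882462: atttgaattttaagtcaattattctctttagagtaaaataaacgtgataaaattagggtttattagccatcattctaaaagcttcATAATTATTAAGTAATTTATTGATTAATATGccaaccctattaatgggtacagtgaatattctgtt
skin-only region, chr11:62768135-62768285: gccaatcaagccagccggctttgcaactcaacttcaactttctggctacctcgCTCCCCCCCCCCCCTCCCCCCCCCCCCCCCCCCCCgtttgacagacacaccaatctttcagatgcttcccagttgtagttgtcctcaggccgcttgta
The region on chromosome 8 was AT-rich (75.5%) and lay 50413 bp from Gm15319. The thymocyte-only region at chr8:19883857-19884206, described later, had the same nearest gene. The region on chromosome 11 lay in an intron of Cdrt4, had an AT content of 39.7% and held a C-rich run.

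Thymocyte-only and shared regions were mostly BURs, and skin-only regions were not. In thymocyte lists 1 and 2, 76.7% of the thymocyte-only peaks overlapped a BUR (mean 76.7% ± 0.00408, SD, n = 2). In skin lists 1 and 2, 34.8% and 35.1% of the skin-only peaks did (mean 35.0% ± 0.198, n = 2). Among shared peaks the value was 89.2% in the thymocyte lists and 89.1% in the skin lists. Over all peaks it was 76.7% in the thymocyte lists and 78.9% in the skin lists. Skin-only regions were 13.1% of the regions in both skin lists, so this class does not stand for all skin peaks. The thymocyte-only values of the 2 thymocyte lists lay apart from the skin-only values of the 2 skin lists. The difference of 41.8 percentage points reached p = 0.333 in an exact two-sided permutation test, which is the smallest p that 2 lists against 2 can give. The SDs are small because, by the rule, both lists of a class hold the same regions. The 2 lists of a class thus repeat the same set of regions. Their separation and the permutation p therefore add no support, here and for the later class differences.

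CTCF overlap ran the other way. Of the skin-only peaks, 75.3% ± 0.0446 overlapped a CTCF peak of skin, against 0.315% ± 0.0251 of the thymocyte-only peaks with a CTCF peak of thymocytes (n = 2 lists each, exact two-sided permutation p = 0.333). Shared peaks overlapped their own tissue's CTCF peaks in 2.19% and 2.21% (thymocyte lists 1 and 2) and in 2.67% and 2.64% (skin lists 1 and 2). All peaks together did so in 0.69% in the thymocyte lists and 12.4% in the skin lists. The skin-only peaks overlapped the thymocyte CTCF list in only 3.01%, so the difference, thymocyte-only minus skin-only, was -74.9 percentage points with each tissue's own CTCF list and -2.50 with the lists exchanged. Each CTCF list is a single sample, and a further thymocyte urea CTCF sample of the series was not analysed here.

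The brain and standard lists also set the skin-only class apart from the other classes. Each of the brain lists held 94.1% to 94.7% of the thymocyte-only peaks and 95.8% to 96.6% of the shared peaks, but 4.18% to 4.69% of the skin-only peaks. The standard thymocyte SATB1 lists overlapped 44.2% (replicate 1) and 54.0% (replicate 2) of the skin-only peaks, although no urea list of thymocytes had a peak there. They overlapped 0.448% and 0.31% of the thymocyte-only peaks. In either standard list or both, 738 of the 1189 skin-only regions were found (62.1%), against 0.625% of thymocyte-only and 3.37% of shared regions. Of the skin CTCF peaks outside skin-only regions 37.3% were in a standard list. The share was 54.4% for thymocyte CTCF peaks and 1.38% for the evenly spaced genome windows. Of the skin-only regions, 430 were in both standard lists and the skin CTCF list.

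**Figure D1:**
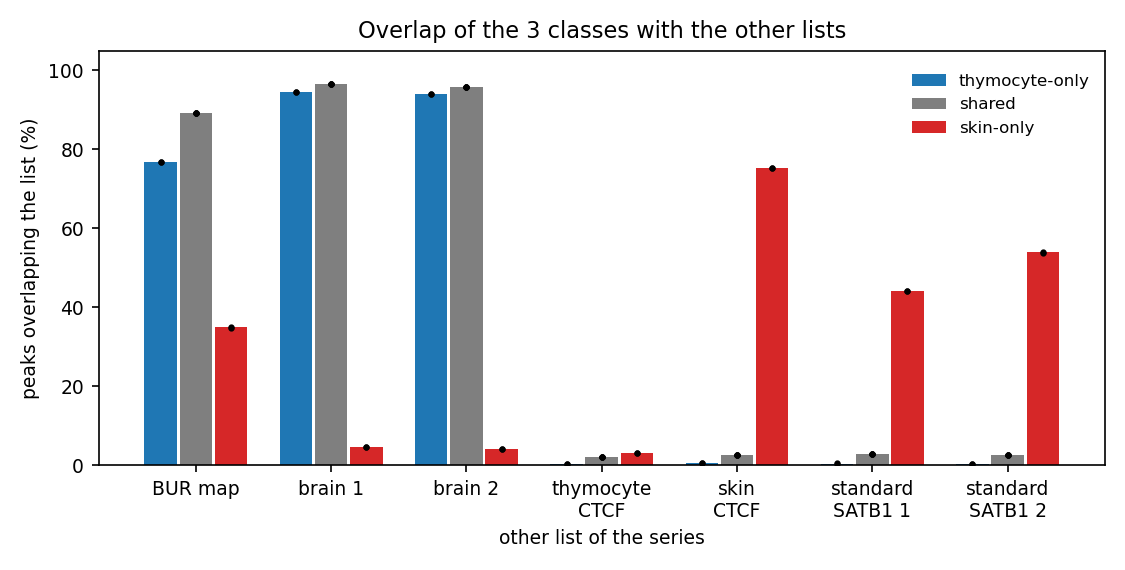
Share of peaks in each class (y axis, percent) that overlapped each of the other lists (x axis). Bars are means over the lists that hold the class (2 for thymocyte-only and for skin-only, 4 for shared) and points are single lists. Thymocyte-only and shared peaks overlapped the BUR and brain lists, and skin-only peaks overlapped the skin CTCF and standard SATB1 lists.

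AT content was also lowest in skin-only peaks. In the 300 bp around the summit it was 68.5% ± 0.0248 in thymocyte-only peaks and 56.9% ± 0.164 in skin-only peaks (n = 2 lists each, difference 11.6 percentage points, exact two-sided permutation p = 0.333). Shared peaks held 68.3% in the thymocyte lists and 68.2% in the skin lists. All peaks together held 68.3% in the thymocyte lists and 66.5% in the skin lists. Over all BURs the mean was 71.0%, and over the evenly spaced genome windows it was 58.2%. Skin-only peaks varied more among themselves, with an SD over peaks of 9.68 percentage points against 5.70 for thymocyte-only peaks. The longest stretch lacking C or lacking G had a median of 34 bp in thymocyte-only, 37 bp in shared and 30.5 bp in skin-only peaks (mean of 2 list medians).

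**Figure D2:**
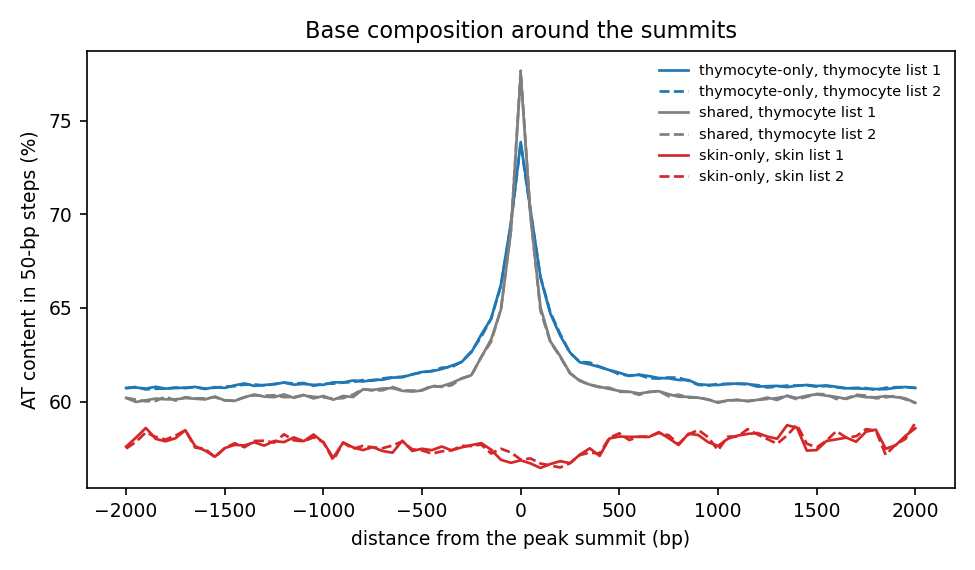
Mean AT content in steps of 50 bp (y axis, percent) against distance from the summit (x axis, bp), by class and list (shared peaks from the thymocyte lists). Thymocyte-only peaks reached 73.9% and 73.8% and shared peaks 77.5% and 77.7% at the summit, against 59.9% to 60.7% at 2000 bp on either side, and skin-only peaks stood at 56.9% at the summit without a rise.

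In thymocytes, shared peaks were stronger than thymocyte-only peaks, and in skin the classes were closer. Fold enrichment, the height of a peak over the local background as the peak caller gives it, had a median of 17.0 and 17.8 in the shared peaks of the thymocyte lists, against 7.88 and 7.12 in the thymocyte-only peaks. In skin the shared peaks had 9.72 and 9.21, and the skin-only peaks 9.43 and 8.39. By the median -log10 q the order in skin was the opposite, with 31.7 and 29.0 in shared and 38.5 and 34.3 in skin-only peaks. Of the strongest 10% of the thymocyte peaks, 82.3% (replicate 1) and 89.3% (replicate 2) were shared. In the weakest 10%, 1.31% and 1.67% were. In skin the strongest 10% were shared in 83.9% and 85.6%, and skin-only peaks made up 15.5% of both the strongest and the weakest 10% of replicate 1. Regions in both thymocyte lists and just 1 skin list (2800) lay between the classes, with a median fold enrichment of 11.6.

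**Figure D3:**
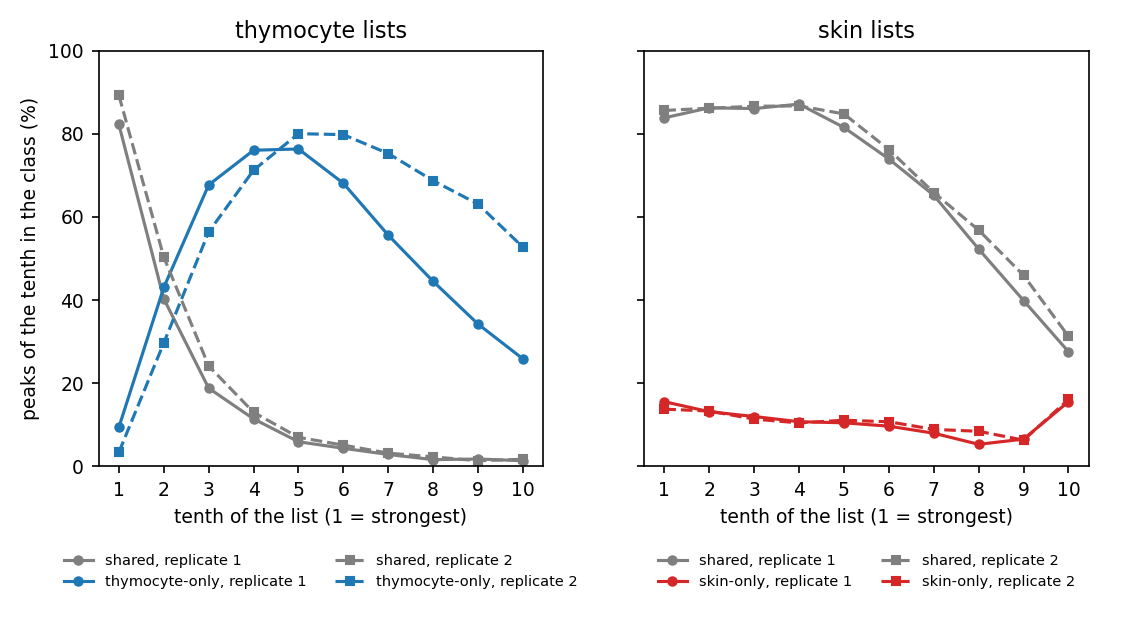
Share of peaks in the shared and single-tissue classes (y axis, percent) in steps of 10% of each list ranked on fold enrichment (x axis, 1 is the strongest). Shared peaks fell from 82.3% and 89.3% to under 2% along the thymocyte lists, while skin-only peaks stayed at about 5% to 16% along the skin lists.

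The class sizes depended on list length. The thymocyte lists held 45049 and 38882 peaks and the skin lists 11210 and 10846. When each list was cut to its 10846 peaks with the lowest q-values, 2143 regions were thymocyte-only, 2351 skin-only and 5758 shared, so that the thymocyte-only and skin-only classes were of similar size. Without thymocyte replicate 2 there were 34351 thymocyte-only regions. With lists of equal size the differences kept their direction, at 42.6 percentage points for BURs, -42.0 for CTCF and 7.99 for AT content. Of the regions in both skin lists, 84.4% were shared, whereas of those in both thymocyte lists 23.2% were.

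BURs under shared regions had the highest median enrichment in vitro. The 6853 BURs under shared regions had a median in vitro fold enrichment of 10.1 (quartiles 7.21 and 13.7). The 17285 under thymocyte-only regions had 8.06, the 411 under skin-only regions 7.11, and the 200028 without a peak in any of the 4 lists 5.54. The longest stretch lacking C or lacking G did not follow this order. Its median was 38 bp under shared, 35 bp under thymocyte-only and 34 bp under skin-only regions, and 41 bp in BURs without a peak. BURs are not replicates, so these values are given without a test.

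Genomic place differed little in its broad shares. Summits lay in protein-coding genes for 34.2% ± 0.00322 of the thymocyte-only and 35.7% ± 0.18 of the skin-only peaks (n = 2 lists each, exact two-sided permutation p = 0.333), against 37.7% of the evenly spaced windows. The difference of -1.50 percentage points turned positive without peaks on skin CTCF (8.46), without peaks on BURs (0.69) and without peaks in a standard list (1.82). Within 1 kb of a protein-coding start site lay 1.05% ± 0.0127 of the thymocyte-only and 3.14% ± 0.0704 of the skin-only peaks (exact two-sided permutation p = 0.333), against 2.32% of the windows. Without peaks on skin CTCF this difference of -2.09 points shrank to -0.0779. Exons held 1.10% of the thymocyte-only, 0.9% of the shared and 4.21% of the skin-only peaks. The median distance to the nearest start was 115 kb for thymocyte-only, 87.2 kb for shared and 41.5 kb for skin-only peaks.

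Of the 8 strongest thymocyte-only regions, 7 were on BURs, and all 8 lay between genes or in introns. The strongest, at chr10:121200281-121200528, had a fold enrichment of 29.0 and 31.1, lay 10347 bp from BC048403 and was the one not on a BUR. It overlapped a thymocyte CTCF peak instead. The region at chr1:88623781-88624308 in Dis3l2 had 24.5 and 25.3. The region at chr10:48373387-48373884 had 23.6 and 22.0 and lay 445382 bp from Grik2, a kainate receptor gene. The other strong regions lay 24828 bp from Ano3 (an anoctamin), 569856 bp from Cntnap5b, 262647 bp from Depdc1a, 49036 bp from Gm15319 and in an intron of Rbm46. All 8 were in both brain lists.

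The strongest shared regions had nearly the same fold enrichment in all 4 lists. The region near Nanog (chr6:122647336-122647989) had 35.9 and 35.2 in thymocytes and 35.1 and 35.4 in skin. The region at chrX:22594933-22595517, 200880 bp from Klhl13, had 34.0 and 35.0 in thymocytes and 34.7 and 34.9 in skin. The region at chr17:72984967-72985613, 31918 bp from the receptor kinase gene Alk, had 36.2 and 35.5 in thymocytes and 32.3 and 32.7 in skin. The other 5 lay near Col12a1, Murc, Ube2e2 and Foxd3 and in an intron of Ppp2r2b. All 8 were on BURs and in both brain lists, and those near Nanog and Ube2e2 were also on skin CTCF peaks.

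The genes with most thymocyte-only or shared regions were large. Cntnap2, which encodes a neuronal adhesion protein, had 39 thymocyte-only and 8 shared regions over 2241 kb. Lrp1b had 38 and 15, Ptprd 38 and 12, Csmd3 35 and 10, and Fam190a 35 and 7. Among shared regions the next were Gpc5 (12), the X-linked Il1rapl1 (12) and Dmd (11), the dystrophin gene. Neither class was tested against gene length.

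A thymocyte-only region lay within 50 kb of 45.0% of the 22225 protein-coding genes counted, a shared region near 24.5% and a skin-only region near 5.51%. Of 36 T-cell identity genes found, 19 (52.8%) had a thymocyte-only, 5 (13.9%) a shared and 2 (5.56%) a skin-only region. Of 39 epidermal keratinocyte genes, 17 (43.6%) had a thymocyte-only, 14 (35.9%) a shared and 0 a skin-only region. Of 38 long genes of neuronal adhesion and the synapse, 36 had a thymocyte-only, 36 a shared and 11 a skin-only region. Gene lists differ in gene length, with medians of 30.5 kb, 20.1 kb and 867 kb against 15.5 kb for all genes, which was not adjusted for.

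Thymocyte-only regions lay in the bodies of 6 of the 36 T-cell genes (16.7%) and 2 of the 39 keratinocyte genes (5.13%), against 15.8% of all genes. Tox, a regulator of thymocyte selection, had 4, with a highest mean fold enrichment of 11.5, and Themis, which tunes T-cell receptor signalling, had 3. Runx1 (7.60) and Ptprc (7.32), the CD45 gene, had 1 each, and Satb1 itself had 5. Among keratinocyte genes, Trp63, the master regulator of stratified epithelium, had 4 thymocyte-only regions (highest 16.3) and Dsc3 had 1 (7.81). Shared regions lay in the bodies of 3 T-cell genes (8.33%) and 2 keratinocyte genes (5.13%), against 8.31% of all genes. The keratinocyte genes were Itga6 (14.8) and Lama3 (6.75), which encode parts of the hemidesmosome and its laminin ligand.

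Gene families gave a mixed picture. A thymocyte-only region lay within 50 kb of 777 of 1113 olfactory receptor genes (69.8%) and 35 of 46 keratin-associated protein genes (76.1%), but of 13 of 51 keratin genes (25.5%) and 20 of 67 replication-dependent histone genes (29.9%). The shares were 45.9% for vomeronasal receptor, 41.1% for Zfp zinc finger, 51.3% for Hox, 40.0% for ribosomal protein, 48.2% for interleukin and 45.8% for clustered protocadherin genes, against 45.0% of all genes. Skin-only regions lay near 49 of 327 vomeronasal receptor genes (15.0%), against 5.51% of all genes, and near 15 of the olfactory receptor genes (1.35%). Family members are neighbours and share regions, so they are not independent.

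Skin-only regions formed distinct groups by overlap. Of the 1189, 701 (59.0%) were on a skin CTCF peak without a BUR, 224 (18.8%) on a BUR without skin CTCF, 194 (16.3%) on both and 70 (5.89%) on neither. The 224 BUR regions had a mean AT content of 68.0% and a median fold enrichment of 11.4, and 6.70% of them were in both brain lists. Their counterparts among thymocyte-only regions had 70.4% AT, and 97.2% of them were in both brain lists. The 701 regions on a skin CTCF peak without a BUR had 52.6% AT, and 52.9% and 67.5% of them were in standard lists 1 and 2. With peaks on skin CTCF left out of both classes, an alternative chosen after seeing the data, the difference in BUR overlap between thymocyte-only and skin-only peaks fell from 41.8 to 0.983 percentage points, and the difference in AT content from 11.6 to 2.96.

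The skin CTCF peaks under skin-only regions differed from the other skin CTCF peaks. There were 903 of them among 31509 (2.87%), with a median fold enrichment of 13.3 against 5.62 elsewhere. The CTCF core motif CCANNAGNNGGC, searched on both strands within 150 bp of the summit, was present in 2.02% of them and in 34.9% of the other skin CTCF peaks. It was present in 44.7% of the thymocyte CTCF peaks, 1.20% of BURs and 1.65% of the genome windows. Of the 903, 4.43% were in the thymocyte CTCF list, against 54.9% of the other skin CTCF peaks. A match is only a description of letters, and at a single peak the absence of one says nothing of the factor. As a set, the 903 peaks held the motif about as often as the genome windows. Whether CTCF was bound at them was not tested.

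Telomere-type repeats were a feature of the skin-only class. At least 4 tandem copies of TTAGGG, on either strand within 150 bp of the summit, were present at 123 of 1063 skin-only regions with reference sequence (11.6%). They were present at 0 of 22511 thymocyte-only and 0 of 7589 shared regions, at 15 of 232309 BURs and at 1 of 25555 genome windows. All 123 were on skin CTCF peaks. Of the 30414 skin CTCF peaks elsewhere, 33 held the repeat, and of the 20213 thymocyte CTCF peaks 2 did. Sequences not assigned to a chromosome held 10.6% of the skin-only peaks, 0.142% of the thymocyte-only and about 0.73% of the shared peaks. Of these the reference held no sequence.

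The strongest skin-only regions were on peaks of the skin CTCF list. The region in Cdrt4 (chr11:62768183-62768425) had a fold enrichment of 41.8 and 41.5, and a region in Hhat (chr1:194484163-194484398) had 37.9 and 36.5. Others lay in introns of Atp13a4 (34.2 in both lists) and Pcdh15 (33.4 and 34.6, and 32.7 and 33.5 at another site). All 8 of the strongest were on skin CTCF peaks, 2 were on BURs, and 7 were in at least 1 standard list. The remaining one, 368274 bp from Nlgn1, was in both brain lists.

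The gene with the most skin-only regions was Satb1 itself. Its body (chr17:51875512-51972615, minus strand) held 9 skin-only regions, and all 9 overlapped an exon, although exons make up 9.42% of its 97.1 kb. They covered 9 of its 18 merged exons. All 9 were on BURs and on skin CTCF peaks, none was in a brain list, and fold enrichment ranged from 5.49 to 29.6. The strongest, at chr17:51907023-51907542, had 29.6 and 29.1. Of the 5 thymocyte-only regions of the same gene, 1 was on an exon, 0 on a skin CTCF peak and 4 in both brain lists. The shared region (chr17:51948115-51948771) was on an exon, a BUR and a skin CTCF peak, with 6.02 and 5.47 in thymocytes and 12.6 and 12.3 in skin. By list, peaks overlapped 10 of the 18 exons in each skin SATB1 list, 11 in the skin CTCF list and 11 in the BUR map. They overlapped 2 and 1 in the thymocyte urea lists, 1 in each brain list, 1 in the thymocyte CTCF list, and 5 and 4 in the standard lists. No other gene had more than 2 skin-only regions on exons. Whether these exon peaks mark binding to the chromosomal gene or come from other DNA with the same exon sequence cannot be told apart in peak lists and was not tested.

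**Figure D4:**
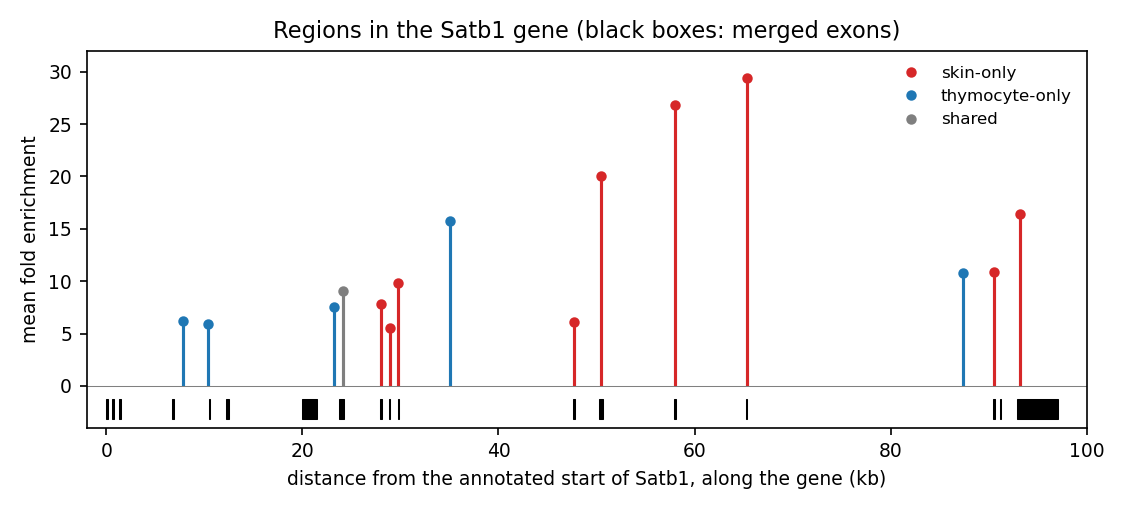
Regions in the Satb1 gene by distance from its annotated start (x axis, kb) and mean fold enrichment over the lists with a peak (y axis), coloured by class, with merged exons as black boxes. Each of the 9 skin-only regions stands over an exon and 4 of the 5 thymocyte-only regions do not.

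A further cluster of skin-only regions lay among vomeronasal receptor genes, which encode pheromone receptors. Between 21 and 24 Mb of chromosome 7, a stretch with 43 genes of the Vmn1r family, there were 37 skin-only, 7 shared and 0 thymocyte-only regions. All 37 were on BURs, none was on a skin CTCF peak or in a brain list, and fold enrichment ranged from 11.7 to 20.6. Vmn1r112 held 4 of them. Smaller clusters of 8 to 11 regions, all on BURs, lay at chr5:11000001-12000000, chrX:51000001-52000000, chrX:52000001-53000000 and chrX:145000001-146000000. Skin-only BUR regions without skin CTCF shared much sequence, counted over the whole set and not by cluster. In 162 of the 208 that had sequence (77.9%), at least 50% of the 31-base words also occurred in other regions of the set. Within the thymocyte-only class this held for 0.0888% of regions, and within the shared class for 1.13%. Reads from near-identical copies cannot be assigned with certainty, so the counts in such clusters are uncertain.

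The other genes with most skin-only regions were Fgfr2 (3, over a span of 3009 kb in this annotation), Gm8897 (3) and Mid1 (3). Near the start of chromosome 9, at 3 to 4 Mb, 13 skin-only regions had fold enrichments of only 1.68 to 3.60, and all 13 were on skin CTCF peaks and in a standard list. Of the 13, 11 were on BURs, and the same stretch also held 15 thymocyte-only and 14 shared regions. The part of repeats and of mapping in the skin-only class was not tested.

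Among shared regions, fold enrichment differed between tissues at many sites, but the direction depended on scaling. Before scaling, thymocyte values were 1.63-fold higher at the median (0.70 on the log2 scale). With each list centred on its own median, limma called 3153 of 7647 regions (41.2%) at an adjusted p below 0.05, 808 higher in thymocytes (10.6%) and 2345 higher in skin (30.7%), with n = 2 lists each. The fit rests on the spread between the 2 lists of a tissue, which may in part be technical. The limma p-values and SEs, here and below, may therefore understate the spread between animals. Only regions with a peak in every list were tested, so regions that missed the peak call in any list were left out. Among those left out were 22542 thymocyte-only regions and 2800 in both thymocyte lists and just 1 skin list. The other way, 1189 were skin-only and 222 were in both skin lists and just 1 thymocyte list. The shares called in each direction, here and below, therefore hold for shared regions alone. How far this rule shaped them was not tested. Without thymocyte replicate 1, 6.81% were higher in thymocytes. Without centring, 69.4% were higher in thymocytes and 1.97% in skin. With quantile normalization the shares were 10.7% and 11.5%. Of the regions called higher in skin after centring, 874 were called higher in thymocytes without it.

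Called in 1 direction under all 3 scalings were 581 regions higher in thymocytes and 150 higher in skin. The 581 were on BURs in 96.4% and on skin CTCF peaks in 2.58%. The 150 were on BURs in 67.3% and on skin CTCF peaks in 29.3%, with 69.3% in brain list 1 and an AT content of 63.6%. Over all shared regions these values were 89.2%, 2.73%, 96.6% and 68.3%. AT content was taken here over 300 bp around the middle of the merged region, not around a summit.

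The region most in favour of thymocytes was at chr7:102212128-102212596, 894129 bp from Gm9966, with fold enrichments of 26.6 and 24.4 in thymocytes and 5.87 and 4.30 in skin (log2 difference after centring 1.46 ± 0.20 SE, limma adjusted p = 0.00181). The region 11598 bp from Tmtc4 followed, with 21.7 and 21.1 against 4.40 and 4.09. The next lay 19019 bp from Kitl, which encodes stem cell factor (1.40, limma adjusted p = 0.00113), and another in an intron of Pde3b. All 5 regions with the largest differences were on BURs and kept their call under all 3 scalings.

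The region most in favour of skin was at chr7:23982704-23983271, 19080 bp from Vmn1r165, with 5.33 and 5.98 in thymocytes and 18.0 and 17.5 in skin (log2 difference -2.53 ± 0.18 SE, limma adjusted p = 0.000405). A region in an intron of Myo3a had 8.35 and 6.87 against 24.05 and 21.2. The others lay 2196 bp from Vmn1r160, 23875 bp from Rpp21 and 45612 bp from Zfp825. So 2 of the 5 were in the vomeronasal stretch of chromosome 7, and 2 were on CTCF peaks of both tissues. All 5 kept their call under all 3 scalings.

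**Figure D5:**
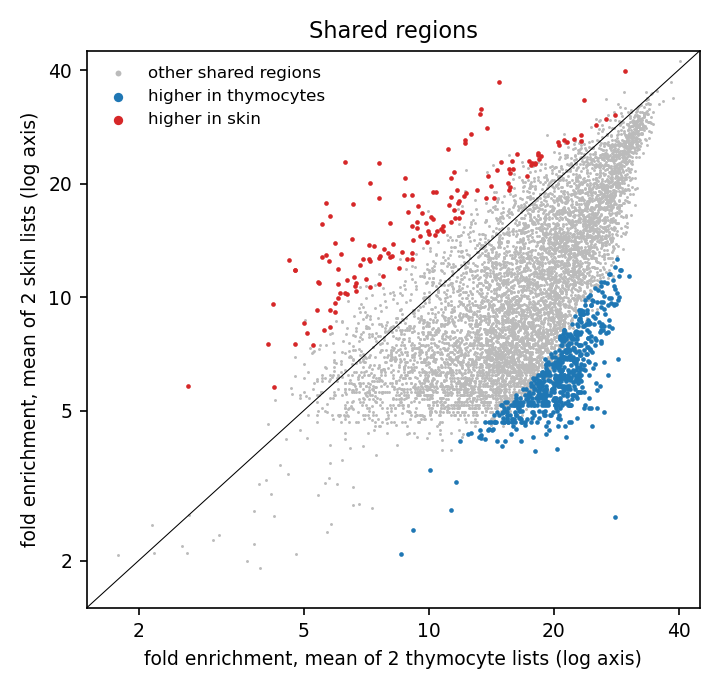
Fold enrichment of the 7647 shared regions, mean of 2 thymocyte lists (x axis) against mean of 2 skin lists (y axis), both on log axes with the line of equality. The 581 regions called higher in thymocytes and the 150 called higher in skin under all 3 scalings are coloured, and most regions lie below the line.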

How the data were processed

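Peaks were deposited as 1 list per sample. Per the submitters' processing notes and the study's methods, the authors aligned reads to mm9 with Bowtie2 2.3.1 (up to 3 seed mismatches, uniquely mapped reads) and passed them to the peak caller MACS2 2.2.7, whose q-value threshold was 0.01. The deposited columns are a peak score, a fold enrichment (a ratio to the local background), -log10 p and q values, and the summit. Whether an input entered the calls is not given in the sources used here. The lists hold no read counts, so no interval was computed; the study describes total aligned reads as similar between cell types.

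Peaks of 4 lists were merged at 1 bp, and values were computed per list from its own peaks. Class differences were tested by exact permutation over lists. Genes came from GENCODE M1 on NCBIM37, as did sequence. Fold enrichment in shared regions was taken as log2, centred on each list's median and tested with limma 3.58.1 (trend, Benjamini-Hochberg over all shared regions) in R 4.3.3, after a test on simulated data. The named regions are the 8 per class with the highest mean fold enrichment, leaving out places where all 11 lists had a peak (49 shared regions) and unplaced sequences, and, in the shared class, the 5 largest differences each way. Named genes are the 5 per class with most regions, and T-cell and keratinocyte list members with a region. The members, lists and rules were chosen with earlier results of these data known. Alternatives were other thresholds, overlaps, list sizes, scalings and left-out lists. Some items covered by these rules are not reported here.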

Additional observations from a re-analysis of the deposited data

How the results depend on the processing

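Of 76 values that the 5 class differences took under other settings, 73 kept their direction, but some of these shrank strongly. Without peaks on skin CTCF the BUR difference went from 41.8 to 0.983 percentage points and the start-site difference from -2.09 to -0.0779. With the CTCF lists exchanged the CTCF difference went from -74.9 to -2.50. The share in genes reversed to 8.46, 0.69 and 1.82 percentage points without peaks on skin CTCF, on BURs and in a standard list, settings chosen after seeing the data. With lists of equal size there were 2143 thymocyte-only and 2351 skin-only regions, and 1639 and 2201 genes within 50 kb. Counting the gene body alone gave 3503 thymocyte-only, 1848 shared and 345 skin-only genes, in place of 10008, 5453 and 1225.

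Leaving out each list in turn gave 23807 to 34351 thymocyte-only regions, the highest without thymocyte replicate 2, 7738 to 9187 shared and 1282 to 1672 skin-only regions. The differences ranged from 33.1 to 46.4 percentage points for BURs, -71.6 to -68.5 for CTCF, 10.6 to 11.8 for AT content, -2.28 to -1.76 near start sites and -2.40 to -1.01 in genes. Among shared regions, 6.81% to 8.85% were then higher in thymocytes, the fewest without thymocyte replicate 1, and 21.8% to 30.4% in skin, with a list alone in its tissue assumed to vary like the others. Without centring the shares were 69.4% and 1.97%, and with quantile normalization 11.5% were higher in skin.

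The replicate numbers are shared between tissues, but nothing states that they pair samples, and deviations of same-numbered lists correlated at 0.142. With the replicate block, 12.4% of the shared regions were higher in thymocytes and 34.4% in skin. Peak lists hold no read counts, so the precision of each value is unknown.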
